A study of Mus musculus with 12 samples.

Results

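The 9 genes described here are Irg1 and 8 genes of the mitochondrial tricarboxylic acid (TCA) cycle, namely Cs, Idh2, Idh3a, Ogdh, Suclg1, Sucla2, Fh1 and Mdh2. They were chosen by name for their place in the pathway, out of 23361 gene symbols measured by RNA-seq in bone marrow-derived macrophages (BMDMs) of wild-type C57BL/6 mice. BMDMs are cultured macrophages, here matured over 6 days from the marrow of animals aged 8 to 12 weeks with L929 supernatant as the source of M-CSF. Control cells were left untreated, the IL-4 group received 20 ng/ml of that cytokine during 24 h, the LPS group 100 ng/ml of endotoxin during 3 h, and the IL-4+LPS group the same IL-4 course followed by the same LPS course. The unit of the LPS dose is that of the labels, and the methods of the study state a molar one. IL-4 is the cytokine of alternative polarization, and LPS, from the outer membrane of bacteria, sets off inflammation. There were 3 samples per group, 12 in total, and all 4 groups shared the genotype and the differentiation. Bone marrow cultures of this kind are macrophages made in a dish, without the tissue signals that resident macrophages receive. The comparisons asked how each treatment changed the transcripts of these enzymes, and whether IL-4 pretreatment altered their response to LPS.

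The TCA cycle oxidizes acetyl groups in the mitochondrial matrix, and its dehydrogenases pass electrons to the respiratory chain. Irg1, now named Acod1, encodes the enzyme that draws cis-aconitate out of the cycle and decarboxylates it to itaconate, which inhibits succinate dehydrogenase and is a known product of inflammatory macrophages. Macrophages activated by LPS are known for a cycle interrupted at several steps, and macrophages activated by IL-4 for an intact one.

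Expression was given as FPKM, a fragment density per transcript length and mapped total, so that levels can be set side by side between genes and every value is relative to the total of its own sample. The absolute depth was unknown, since the tables hold no counts. Steps in the low values gave relative depths of 0.99 to 3.30 with control replicate 1 set to 1. Differences were tested with limma on log2(FPKM + 1) over the 11191 rows with at least 1 FPKM in at least 1 sample, and all 9 genes passed that filter. A gene was called higher or lower where the p-value adjusted over those rows was under 0.05. The Retnla and Arg1 transcripts, which IL-4 induces, were higher in IL-4 by 10.09 and 4.90 on the log2 scale, and Il1b, which LPS induces, was higher in LPS by 8.20. All 8 macrophage markers found in the files reached 1 FPKM in every group, and their summed level was 19380 to 20750 FPKM in control, 7585 to 7799 with IL-4, 16820 to 17850 with LPS and 6854 to 7153 with IL-4+LPS. Lyz2, which the paper lists among genes repressed by IL-4, gave most of that sum in every group. It was at 15340 to 16510 FPKM in control and 4734 to 5051 with IL-4. Cd68 overlapped between control and IL-4, at 1615 to 1881 and 1384 to 1644 FPKM. The other markers were lower with IL-4 without overlap. The 7 neutrophil and progenitor markers found summed to 375 to 969 FPKM in control, 235 to 449 with IL-4, 568 to 1167 with LPS and 469 to 941 with IL-4+LPS, with the lowest sum of every group in replicate 1. Marker lists of T and NK cells, B cells, dendritic cells, mast cells, fibroblasts and erythroid cells summed to at most 4.36 FPKM in any sample. The part of other cells in the results was not tested, and in such bulk samples fewer cells of a type and less RNA per cell cannot be told apart.

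The sequence before the Irg1 start held fewer CpG dinucleotides than those of the cycle genes. RefSeq sequences of the mouse GRCm38.p6 assembly, 250 bases ending at the base before each start site, were matched for 8 of the 9 genes. They are shown for Irg1, the gene with the strongest LPS response, for Cs, whose level did not pass the test after LPS, and for Mdh2, the cycle gene with the highest level. Capitals mark the CpG dinucleotides, and all 3 genes lie on the plus strand, so each run reads 5′ to 3′ toward the gene.
Irg1, chr14:103046762-103047011: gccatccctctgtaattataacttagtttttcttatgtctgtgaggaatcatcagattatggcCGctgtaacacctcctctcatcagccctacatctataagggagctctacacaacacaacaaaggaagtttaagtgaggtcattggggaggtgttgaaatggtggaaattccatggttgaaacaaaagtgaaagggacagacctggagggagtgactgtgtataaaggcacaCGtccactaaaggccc
Cs, chr10:128337477-128337726: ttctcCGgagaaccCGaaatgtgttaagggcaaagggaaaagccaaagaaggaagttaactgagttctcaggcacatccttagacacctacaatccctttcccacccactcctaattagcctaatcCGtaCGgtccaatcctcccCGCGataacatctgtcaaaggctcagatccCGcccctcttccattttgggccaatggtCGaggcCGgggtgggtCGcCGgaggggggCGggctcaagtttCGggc
Mdh2, chr5:135778399-135778648: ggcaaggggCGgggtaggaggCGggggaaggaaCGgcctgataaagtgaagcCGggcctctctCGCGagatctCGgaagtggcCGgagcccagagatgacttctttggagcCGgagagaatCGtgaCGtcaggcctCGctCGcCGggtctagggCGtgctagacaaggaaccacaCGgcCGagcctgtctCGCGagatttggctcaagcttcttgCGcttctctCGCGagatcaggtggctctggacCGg
The Irg1 window held 2 CpG dinucleotides at 44.4% GC. The windows of the 7 cycle genes held 10 in Fh1, 13 in Cs, 15 in Suclg1, 17 in Idh2, 18 in Ogdh and in Sucla2, and 23 in Mdh2, at 52.8% to 67.2% GC. Over all 32851 windows the median was 6 CpG dinucleotides at 52.4% GC, and 29.03% of the windows held no more of them than Irg1 did.

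A total of 8 motifs were searched on both strands of these windows. The CRE motif (TGACGTCA, present in 1.55% of all windows) was found 51 bases before the start of Ogdh and 127 bases before that of Mdh2, where it can be read in the sequence above as tgaCGtca. A STAT6-like motif (TTCNNNNGAA, 5.85% of windows) lay 142 bases before Fh1, and the NRF1 motif (named only, 3.74%) lay 17 bases before Sucla2. The other 5 motifs had no match in the 8 windows, and these were kappa B (GGGNNNTTCC, 4.65%), a GAS-like motif (TTCNNNGAA, 7.02%), an ISRE-like motif (GAAANNGAAA, 2.98%), AP-1 (TGANTCA, 6.75%) and ERR (TCAAGGTCA, 0.387%). A match describes these letters in this window and is not a measured binding site.

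Irg1 went from the lowest of the 9 genes to the highest when LPS was given, with or without IL-4. The gene spans 14:103047012-103056573 on the plus strand of mm10, is protein-coding, and overlaps no other annotated gene. Its level in the 3 control samples was 3.94, 5.69 and 2.10 FPKM. In the 3 IL-4 samples it was 7.69, 1.92 and 1.04 FPKM. Both groups without LPS were thus low and overlapped. In the LPS samples Irg1 reached 2833, 2835 and 3017 FPKM, and in the IL-4+LPS samples 2316, 2878 and 2973 FPKM. No sample without LPS came near any sample with LPS, and the groups with LPS overlapped each other. The mean FPKM rose 740-fold from control (3.91 ± 1.79, SD, n = 3) to LPS (2895 ± 105), a log2 difference of 9.27 ± 0.446 (SE, adjusted p = 3.74e-08). After IL-4 the LPS response of Irg1 was 9.50 on the log2 scale (adjusted p = 3.61e-08), from 3.55 ± 3.61 to 2722 ± 355 FPKM. Called higher rows made up 16.9% of all rows tested for LPS minus control, and 15.0% for IL-4+LPS minus IL-4.

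No effect of IL-4 on Irg1 was detected with all 12 samples. The IL-4 minus control difference was -0.33 (95% interval -1.32 to 0.66, adjusted p = 0.606), and without IL-4 replicate 1, the sample at 7.69 FPKM, Irg1 was called lower by IL-4, at -0.94 (adjusted p = 0.0281). Between IL-4+LPS and LPS the difference was -0.10 (-1.09 to 0.89, adjusted p = 0.903). The interaction, which is how much the LPS response after IL-4 exceeded that of cells not given IL-4, was 0.23 for Irg1 (-1.17 to 1.63, adjusted p = 0.875). The Irg1 intervals were wide, with a spread on the log2 scale that was large at the low levels without LPS. Their standard error was estimated over all 12 samples. The interval of IL-4+LPS minus LPS thus carries that spread too, although the LPS samples stood at 2833 to 3017 FPKM and the IL-4+LPS samples at 2316 to 2973. By this fit no change was detected, and one within these bounds is not excluded. Ranked by FPKM among all rows of a sample, Irg1 stood at 13, 14 and 13 in the LPS samples and at 18, 15 and 13 in the IL-4+LPS samples, against ranks of 7073 to 9353 in control and 6049 to 10012 with IL-4.

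The scale of this induction is seen against the cycle itself. The FPKM of the 8 cycle genes summed to 359 ± 27.8 in control, 512 ± 65.1 with IL-4, 271 ± 12.5 with LPS and 420 ± 19.5 with IL-4+LPS. The Irg1 level was 0.00567 to 0.0150 of that sum in the control samples and 0.00192 to 0.0176 in the IL-4 samples. It was 10.2 to 11.0 times the sum in LPS and 5.81 to 6.82 times the sum in IL-4+LPS, with no overlap between these groups. This ratio is formed within a sample and does not depend on how samples are scaled to each other.

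**Figure D1:**
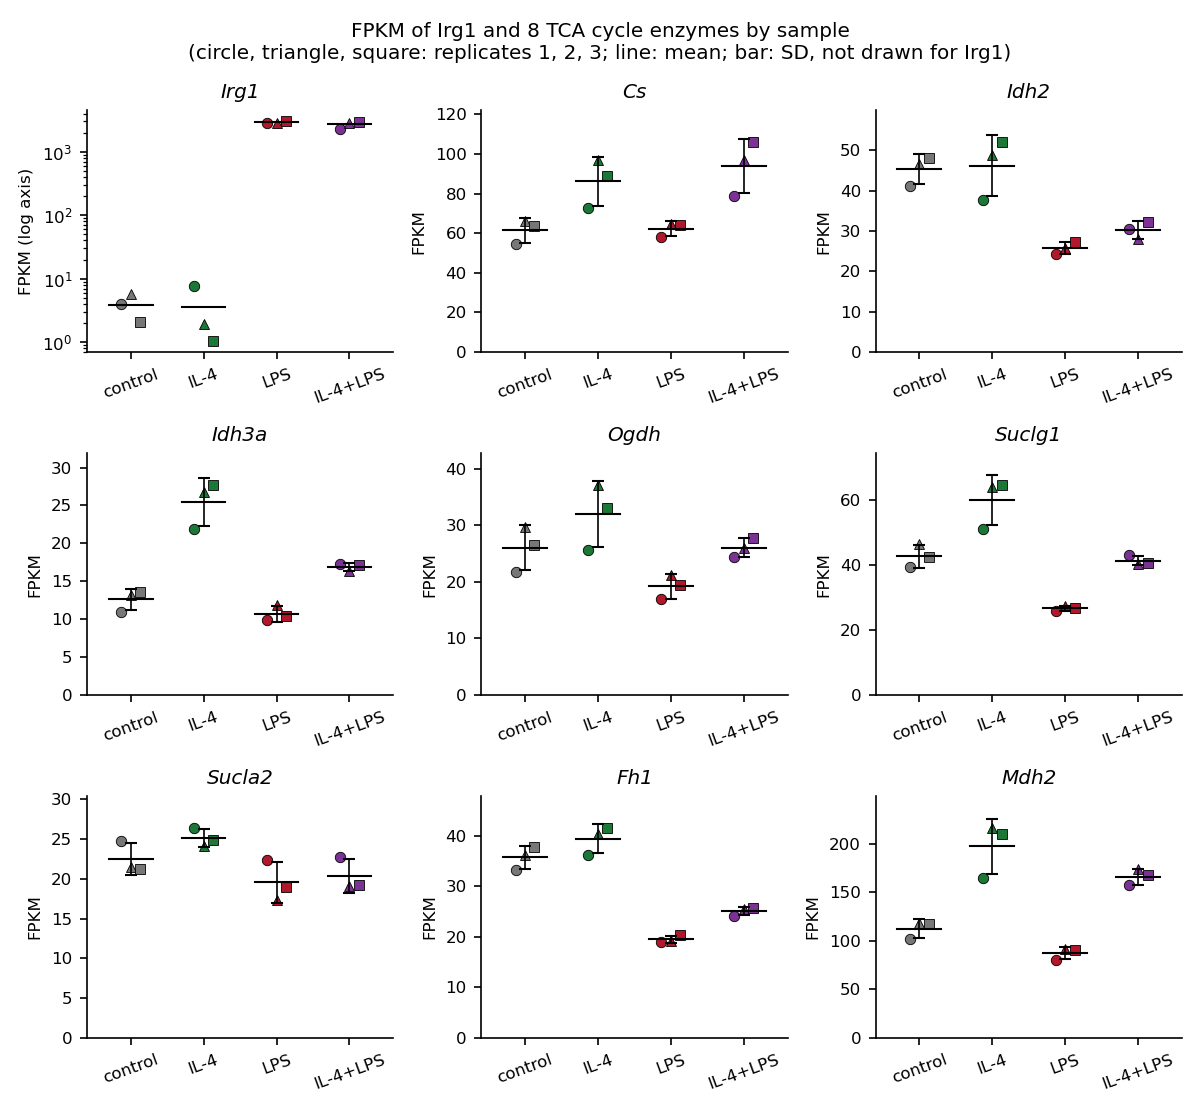
FPKM of Irg1 and of the 8 TCA cycle genes in each of the 12 samples (y axis, a log axis for Irg1 and linear from 0 for the others) by group (x axis). Circles, triangles and squares are replicates 1, 2 and 3, lines are means and bars the SD (not drawn for Irg1). Irg1 is at 1.04 to 7.69 FPKM without LPS and at 2316 to 3017 FPKM with it, whereas cycle genes such as Mdh2 and Idh3a are highest in IL-4.

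The order of FPKM levels among the cycle genes was shared by the groups at the top and differed below it. In control Mdh2 had the highest level, followed by Cs, then by Idh2 and Suclg1 with overlapping ranges, Fh1, Ogdh and Sucla2 with overlapping ranges, and Idh3a as the lowest. In IL-4 the ranges of all neighbours from Suclg1 down to Sucla2 overlapped, and in LPS those of Suclg1 and Idh2 and those of Sucla2, Fh1 and Ogdh did. With IL-4+LPS, Ogdh and Fh1 were the sole neighbours whose ranges overlapped. Mdh2 and Cs kept the top places among the 8 in every group. Idh3a, the lowest of the 8 in control, LPS and IL-4+LPS without overlap, overlapped Sucla2 in IL-4.

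Citrate synthase, the product of Cs (10:128337832-128362479, plus strand), condenses acetyl-CoA with oxaloacetate and opens the cycle. Its level was 54.4, 66.3 and 63.8 FPKM in control and 58.0, 64.9 and 64.1 in LPS, and these groups overlapped. In IL-4 it was 72.8, 96.9 and 89.0 FPKM and in IL-4+LPS 78.9, 96.9 and 106, so every sample with IL-4 was above every sample without it. Cs rose by 0.48 ± 0.132 with IL-4 (adjusted p = 0.017), which is 40.2% in mean FPKM, and by 0.58 in IL-4+LPS over LPS (adjusted p = 0.00751). The IL-4 call was lost without control replicate 1, IL-4 replicate 2 or IL-4 replicate 3, at adjusted p of 0.0641, 0.0684 and 0.0586. LPS minus control was 0.02 (-0.27 to 0.31, adjusted p = 0.89). Of the 50-base words in the Cs transcript, 3.997% are shared with the copy Csl, so a small share of its fragments may be assigned uncertainly, and the other 8 genes shared none.

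Isocitrate is oxidized by different enzymes with different patterns in these data. Idh2 (7:80094847-80115350, minus strand) encodes the mitochondrial NADP-dependent isocitrate dehydrogenase, which makes NADPH. Its level was 41.2, 46.7 and 48.1 FPKM in control, 37.6, 48.9 and 52.1 with IL-4, 24.2, 25.8 and 27.4 with LPS, and 30.6, 28.0 and 32.2 with IL-4+LPS. All samples with LPS were below all samples without it. Idh2 fell by 0.79 with LPS (SE 0.117, adjusted p = 0.000114), a change of -43.1% in mean FPKM, and by 0.59 with LPS after IL-4 (adjusted p = 0.00104). The call after IL-4 was lost under median scaling, at -0.18, and kept under quantile normalization, at -0.50. IL-4 minus control was 0.02 (-0.24 to 0.28, adjusted p = 0.93).

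Idh3a (9:54586511-54604662, plus strand) encodes the catalytic subunit of the NAD-dependent isocitrate dehydrogenase, the enzyme of the cycle proper, and it had the largest IL-4 difference of the 8 genes. Its level was 11.0, 13.2 and 13.6 FPKM in control and 21.9, 26.7 and 27.7 with IL-4. In LPS it was 9.85, 11.9 and 10.4 FPKM, overlapping control, and in IL-4+LPS 17.3, 16.3 and 17.1. Both IL-4 groups were thus above both groups without IL-4. Idh3a rose by 0.96 ± 0.109 with IL-4 (adjusted p = 8.52e-05), 102% in mean FPKM, and by 0.62 in IL-4+LPS over LPS (adjusted p = 0.00164). It fell by 0.55 with LPS after IL-4 (adjusted p = 0.00093). That call was lost under median scaling, at -0.16, and kept under quantile normalization, at -0.36. LPS minus control was -0.21 (adjusted p = 0.0963) and was called lower without control replicate 1, at -0.30 (adjusted p = 0.0286), whereas it turned to 0.13 under quantile normalization and 0.17 under median scaling, without a call.

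Ogdh (11:6291597-6359094, plus strand) encodes the substrate-binding subunit of the 2-oxoglutarate dehydrogenase complex. Its level was 21.8, 29.7 and 26.6 FPKM in control, 25.6, 37.2 and 33.1 with IL-4, 16.9, 21.2 and 19.5 with LPS, and 24.3, 26.0 and 27.7 with IL-4+LPS. Replicate 1 was the lowest in all 4 groups, and the LPS samples were below all others. Ogdh fell by 0.42 with LPS (SE 0.147, adjusted p = 0.0248), and this call was lost without control replicate 2, control replicate 3 or LPS replicate 1, with differences of -0.32, -0.40 and -0.33, and under quantile normalization and median scaling, at -0.27 and -0.02. In IL-4+LPS minus LPS it was 0.42 at an adjusted p of 0.0504, and 11 of the alternatives tried brought it under the threshold. IL-4 minus control was 0.28 (-0.04 to 0.61, adjusted p = 0.162), and without IL-4 replicate 1 it was 0.43 and called higher (adjusted p = 0.0358). LPS after IL-4 was -0.27 (adjusted p = 0.115), and without IL-4 replicate 1 it was -0.42 and called lower (adjusted p = 0.0195), whereas under median scaling it turned to 0.13 without a call.

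Succinyl-CoA ligase pairs the alpha subunit encoded by Suclg1 (6:73248505-73276907, plus strand) with a beta subunit that is specific for ADP, encoded by Sucla2 (14:73552786-73596142, plus strand), or for GDP, encoded by Suclg2. Suclg1 stood at 39.2, 46.4 and 42.5 FPKM in control, 51.1, 64.1 and 64.7 with IL-4, 25.9, 27.4 and 26.7 with LPS, and 43.1, 40.4 and 40.7 with IL-4+LPS. The IL-4+LPS samples lay within the control range, between the IL-4 and the LPS samples. Suclg1 was called in all 4 pairwise comparisons. It rose by 0.48 with IL-4 (SE 0.0944, adjusted p = 0.00292) and by 0.62 in IL-4+LPS over LPS (adjusted p = 0.000679). It fell by 0.66 with LPS (adjusted p = 9.08e-05) and by 0.52 with LPS after IL-4 (adjusted p = 0.000564). The call after IL-4 was lost under median scaling, at -0.11, and kept under quantile normalization.

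Sucla2 moved little. Its level was 24.8, 21.5 and 21.2 FPKM in control, 26.5, 24.1 and 24.8 with IL-4, 22.3, 17.3 and 19.0 with LPS, and 22.8, 19.1 and 19.2 with IL-4+LPS. Unlike Ogdh, it was highest in replicate 1 of every group. It passed the test only for LPS after IL-4, with a fall by 0.30 (SE 0.105, adjusted p = 0.0258), and that call was lost without IL-4 replicate 1, IL-4 replicate 3, IL-4+LPS replicate 2 or IL-4+LPS replicate 3 (adjusted p from 0.0533 to 0.0854). It was also lost under quantile normalization, at -0.13, and under median scaling, where the sign turned to 0.10. LPS minus control was -0.20 (adjusted p = 0.11) and was called lower without LPS replicate 1, at -0.29 (adjusted p = 0.0243), whereas under median scaling it turned to 0.20 without a call.

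Fh1 (1:175601378-175625635, minus strand) encodes fumarase, which hydrates fumarate to malate. It overlaps Kmo on the opposite strand, with no shared exonic base. The level of Fh1 was 33.3, 36.3 and 37.8 FPKM in control, 36.2, 40.4 and 41.6 with IL-4, 19.1, 19.2 and 20.4 with LPS, and 24.1, 25.5 and 25.6 with IL-4+LPS. The LPS samples formed a tight low group, and the IL-4+LPS samples lay between them and control without overlap. Fh1 fell by 0.84 with LPS (SE 0.0717, adjusted p = 2.01e-06), a change of -45.4% in mean FPKM, and by 0.63 with LPS after IL-4 (adjusted p = 1.97e-05). It rose by 0.35 in IL-4+LPS over LPS (adjusted p = 0.00437), whereas IL-4 minus control was 0.14 (-0.02 to 0.29, adjusted p = 0.168).

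Mdh2 (5:135778649-135790386, plus strand) encodes mitochondrial malate dehydrogenase, which regenerates oxaloacetate. Its level was 102, 119 and 117 FPKM in control, 165, 217 and 210 with IL-4, 80.5, 91.2 and 90.6 with LPS, and 157, 174 and 168 with IL-4+LPS. Every sample with IL-4 was above every sample without it. Mdh2 rose by 0.80 ± 0.108 with IL-4 (adjusted p = 0.000277), 75.0% in mean FPKM, and by 0.92 in IL-4+LPS over LPS (adjusted p = 0.00011), 90.1% in mean FPKM. It was lower in LPS than in control by -0.36 (adjusted p = 0.0107) on the deposited scale and changed sign under median scaling, to 0.046 without a call. LPS after IL-4 gave -0.24 (adjusted p = 0.0689), and without IL-4 replicate 1 this was -0.36 and called lower (adjusted p = 0.00492). Quantile normalization also gave a call, at -0.39, whereas median scaling turned it to 0.18 without one.

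Counted together, 4 of the 8 cycle genes (50%) were called higher in IL-4 than in control, namely Cs, Idh3a, Suclg1 and Mdh2, and none was called lower by limma, nor was any at an unadjusted p under 0.05. Of all rows tested, 16.0% were called higher by IL-4 and 21.0% lower. In IL-4+LPS against LPS, 5 of the 8 (62.5%) were called higher, the same 4 genes and Fh1, and none lower, against 15.0% higher and 15.8% lower over all rows. The median difference of the 8 genes was 0.38 for IL-4 and 0.50 for IL-4+LPS minus LPS, and over all rows it was -0.05 and -0.03. These comparisons share no sample, but limma took the same estimate of the spread from all 12 samples for both, so their tests are not independent. With replicates 2 and 3 only, 7 of the 9 genes were called higher by IL-4, with Ogdh, Sucla2 and Fh1 added. In that setting the calls over all 11191 rows also grew, from 1795 to 2406 higher by IL-4 and from 2346 to 3286 lower.

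**Figure D2:**
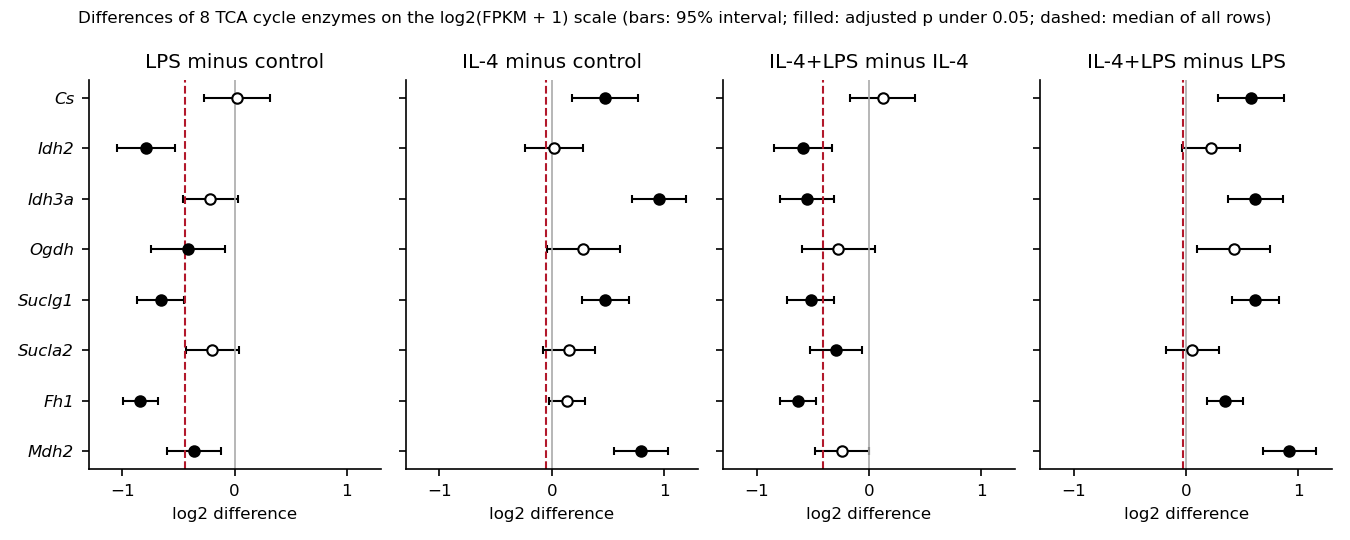
Differences of the 8 TCA cycle genes on the log2(FPKM + 1) scale (x axis) in 4 comparisons. Points are fitted differences, bars their 95% intervals, filled points passed the test, and the dashed line is the median of all 11191 rows. With IL-4 the called genes lie to the right of the dashed line, while with LPS the line itself stands at -0.44 and -0.41 and the 8 genes spread on both sides of it, and under median scaling Idh3a, Sucla2 and Mdh2 changed sign with LPS and Ogdh, Sucla2 and Mdh2 with LPS after IL-4.

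With LPS, 5 of the 8 cycle genes (62.5%) were called lower, namely Idh2, Ogdh, Suclg1, Fh1 and Mdh2, and none higher. After IL-4, 5 of the 8 were again called lower by LPS, with Idh3a and Sucla2 in place of Ogdh and Mdh2. Over all rows 57.7% were called lower by LPS and 57.9% by LPS after IL-4, so that the share of cycle genes was close to that of all rows. The median of the 8 genes was -0.39 for LPS and -0.41 for LPS after IL-4, and the median of all rows was -0.44 and -0.41. Set against the median of all rows, Fh1 lay lower by -0.40, Idh2 by -0.35 and Suclg1 by -0.21 after LPS, while Ogdh was at 0.03, Mdh2 at 0.08, Idh3a at 0.23, Sucla2 at 0.25 and Cs at 0.47.

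Because FPKM is relative to the total of a sample, the samples were also divided by their median ratio to the mean sample. The factors were 1.08 to 1.14 without LPS and 0.828 to 0.858 with LPS, and the median of all rows for LPS minus control moved from -0.44 to -0.11. On that scale 28.0% of all rows were called higher by LPS and 37.7% lower, and for LPS after IL-4 these shares were 25.6% and 33.6%. Fh1 (-0.44), Idh2 (-0.39) and Suclg1 (-0.26) were still called lower by LPS, and Cs was called higher (0.43, adjusted p = 0.0129). Mdh2, Idh3a and Sucla2 changed sign to 0.046, 0.17 and 0.20 and Ogdh came to -0.02, all without a call. For LPS after IL-4 the sole call of a lower cycle gene was Fh1 (-0.23, adjusted p = 0.0116), and Cs was again called higher (0.53, adjusted p = 0.00438). The IL-4 differences moved little, with 4 of the 8 genes called higher in IL-4 and 6 in IL-4+LPS minus LPS, where Ogdh was added. Irg1 was called higher by LPS on every scale tried.

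**Figure D3:**
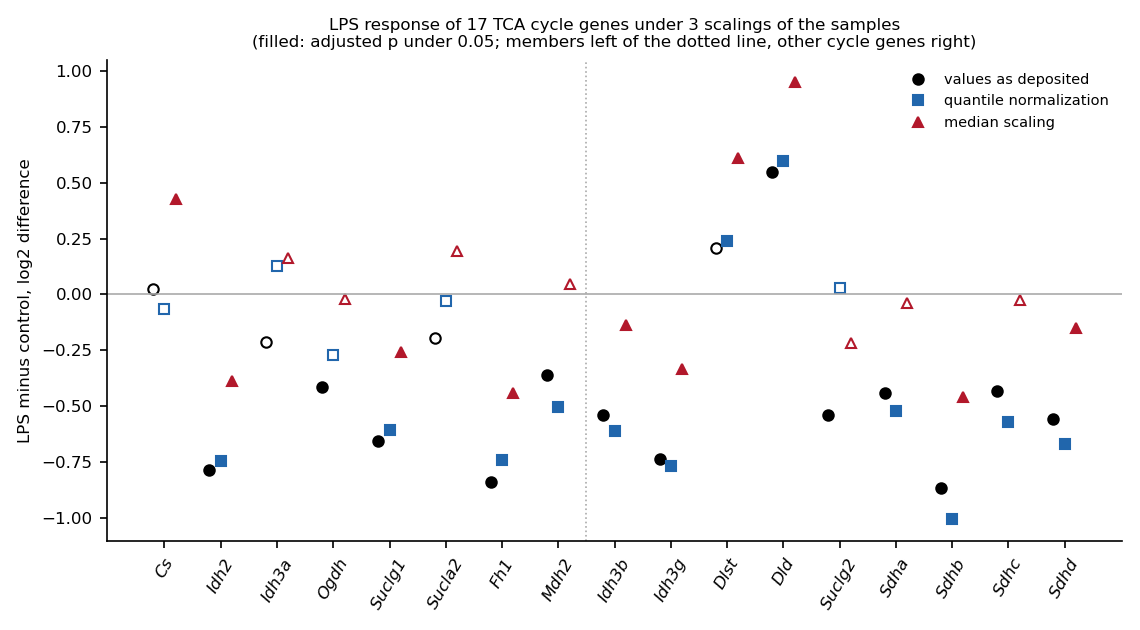
LPS minus control on the log2(FPKM + 1) scale (y axis) for 17 genes of the TCA cycle (x axis, the 8 described here to the left of the dotted line) with the values as deposited, after quantile normalization and after median scaling. Filled symbols passed the test. Fh1, Idh2 and Suclg1 are called lower on all 3 scales, Mdh2 turns from lower to just above 0 under median scaling and Suclg2 does so under quantile normalization, and Dld is called higher on all 3.

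Ratios between enzymes within a sample do not depend on such scaling. The pairs were chosen after their values were seen and are given without a test. Cs to Fh1 was 1.64 to 1.83 in control and 3.04 to 3.38 with LPS, with no overlap, and it reached 3.27 to 4.14 with IL-4+LPS. Mdh2 to Fh1, which encode consecutive enzymes, was 3.06 to 3.28 in control, 4.56 to 5.36 with IL-4, 4.22 to 4.75 with LPS and 6.52 to 6.80 with IL-4+LPS. Such a ratio shows unequal change and not which of its genes changed.

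None of the 9 genes passed limma's test of the interaction, and 0 of the 9 had an unadjusted p under 0.05, where calls covered 4.58% of all rows as higher and 4.63% as lower. The interaction was -0.34 for Idh3a (-0.68 to 0.00, adjusted p = 0.209), the largest in size among the 8, and 0.21 for Fh1 (-0.02 to 0.43, adjusted p = 0.241). For the other 6 cycle genes it ran from -0.10 in Sucla2 to 0.20 in Idh2. With replicates 2 and 3 only, Idh3a was called at -0.42 (adjusted p = 0.0246). With the replicate number as a block, Fh1 was called at 0.21 (limma, adjusted p = 0.0496). In the main fit of all 12 samples, a difference in the LPS response after IL-4 was thus not detected for these genes, and one within their intervals is not excluded. The interval of the interaction was -0.32 to 0.60 in Ogdh and -1.17 to 1.63 in Irg1.

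A further 9 genes of the cycle were taken from a list of its enzymes. The 4 subunits of succinate dehydrogenase, the enzyme that itaconate inhibits, were among them. Sdhb, which carries the iron-sulfur clusters, went from 144 ± 2.60 FPKM in control to 178 ± 4.53 with IL-4, 78.5 ± 0.218 with LPS and 111 ± 3.35 with IL-4+LPS. It had the largest LPS fall of these 17 cycle genes on the deposited scale, by 0.87 (adjusted p = 1.2e-07), and stayed called lower under median scaling. Sdha, Sdhc and Sdhd differed by -0.44, -0.43 and -0.56 with LPS, all called, and Sdha and Sdhc were no longer called under median scaling. Without control replicate 2, control replicate 3 or LPS replicate 1, the Sdhc call was lost as well. With IL-4, Sdha rose by 0.46, Sdhb by 0.31 and Sdhd by 0.52, and Sdhc was at 0.35 (adjusted p = 0.0985).

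The remaining subunits did not all follow their partners. Idh3b and Idh3g, the other subunits of the enzyme to which Idh3a belongs, were at 0.07 and 0.10 with IL-4, and neither was called. The ratio of Idh3a to Idh3b in FPKM was 0.146 to 0.184 in control, 0.296 to 0.341 with IL-4, 0.191 to 0.225 with LPS and 0.282 to 0.297 with IL-4+LPS. Suclg2, the GDP-specific partner of Suclg1, fell with IL-4 by 0.65 (adjusted p = 0.00238), from 4.73 ± 0.899 to 2.63 ± 0.144 FPKM, where Suclg1 rose. Its ratio to Sucla2 was 0.150 to 0.257 in control and 0.0930 to 0.112 with IL-4. Dlst and Dld, which complete the complex that holds Ogdh, rose with IL-4 by 0.40 and 0.43. Dld, which also serves the pyruvate dehydrogenase complex, was called higher with LPS as well, by 0.55 (adjusted p = 0.000175), from 34.4 ± 2.74 to 50.7 ± 2.55 FPKM.

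Over these 17 cycle genes, 9 were called higher and 1 (Suclg2) lower by IL-4, and 11 higher and 1 (again Suclg2) lower in IL-4+LPS minus LPS. Over all rows 16.0% were called higher and 21.0% lower in the first of these comparisons, and 15.0% and 15.8% in the second. With LPS 1 was called higher (Dld) and 12 lower (70.6%), and with LPS after IL-4 none was called higher and 11 lower (64.7%), where 57.7% and 57.9% of all rows were called lower. Under median scaling these counts became 3 higher (Cs, Dlst and Dld) and 7 lower for LPS, and 3 higher (the same 3 genes) and 2 lower (Fh1 and Sdhb) for LPS after IL-4. Dlst changed sign there, from -0.13 to 0.27, and Dld was at 0.50. On that scale 28.0% of all rows were called higher and 37.7% lower by LPS, and 25.6% and 33.6% by LPS after IL-4. Quantile normalization gave 2 higher and 10 lower of the 17 for LPS, and 0 and 11 for LPS after IL-4. Over all 11191 rows it gave 2903 higher and 4326 lower, and 2461 and 4173.

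**Figure D4:**
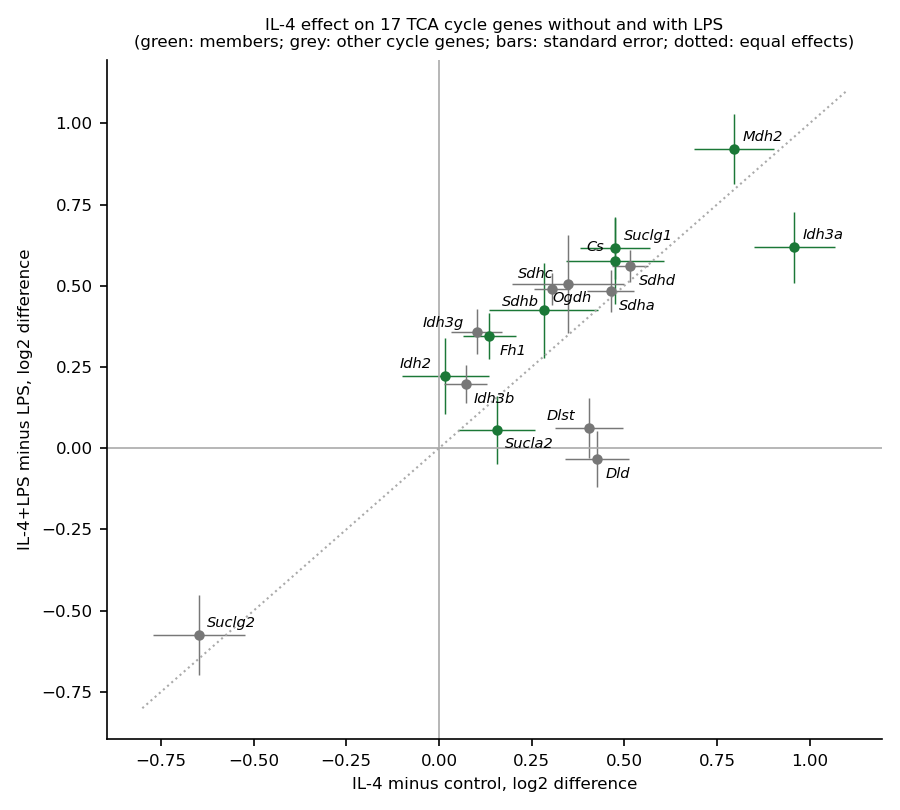
Effect of IL-4 on 17 TCA cycle genes without LPS (x axis, IL-4 minus control) and with LPS (y axis, IL-4+LPS minus LPS), both as log2 differences with standard errors. Green points are the 8 genes described in full, grey points the further 9, and the dotted line marks equal effects. Mdh2 (0.80 and 0.92) and Idh3a (0.96 and 0.62) lie farthest to the upper right, and Suclg2 lies alone at the lower left.

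Reactions that feed the cycle were read from lists of pathway genes. Of 12 genes of pyruvate entry that passed the filter, which include the pyruvate dehydrogenase subunits, their kinases and phosphatases and the mitochondrial pyruvate carrier, 5 were called higher and 2 lower by IL-4, and none higher and 9 lower by LPS. Of 15 cytosolic and feeder genes, 7 were called higher and 1 lower by IL-4, and 2 higher and 11 lower by LPS. In IL-4+LPS minus LPS the counts were 6 higher and 1 lower of the 12, and 6 higher and 1 lower of the 15. Over all rows the shares were 16.0% higher and 21.0% lower by IL-4, 16.9% and 57.7% by LPS, and 15.0% and 15.8% in IL-4+LPS minus LPS. Under median scaling LPS gave 1 higher (Pdhx) and 3 lower (Pdk1, Pdk2 and Pdp1) of the 12, which are named after their values were seen, and 3 higher and 7 lower of the 15. On that scale 28.0% of all rows were called higher by LPS and 37.7% lower. Under quantile normalization LPS gave 2 higher and 6 lower of the 12, and 3 higher and 10 lower of the 15. There 2903 of all 11191 rows were called higher and 4326 lower. In IL-4+LPS minus LPS on the deposited scale, Aco1, the cytosolic aconitase, was higher by 1.12 (adjusted p = 0.000169). Slc25a13, a mitochondrial aspartate and glutamate carrier, was higher by 1.32 in that comparison (adjusted p = 1.81e-05). Slc25a13 had been at 7.44 to 8.87 FPKM in control and stood at 19.4 to 23.3 with IL-4, 2.54 to 3.61 with LPS and 8.04 to 10.1 with IL-4+LPS.

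Of the genes that handle itaconate or other dicarboxylates, 1 was called higher and 2 lower by LPS. Over all rows 16.9% were called higher and 57.7% lower by LPS. Only 3 of the 6 listed were tested, since Oxgr1 and Sucnr1 did not pass the filter and Sugct was not matched in the files. Slc13a3, a sodium-coupled carrier that takes up dicarboxylates, was at 12.2, 21.8 and 24.0 FPKM in control, 2.02, 2.29 and 2.13 with IL-4, 39.5, 52.4 and 47.2 with LPS and 4.22, 5.87 and 5.97 with IL-4+LPS. It was the gene of these lists with the strongest IL-4 loss, at -2.64 (adjusted p = 8.54e-06) without LPS and -2.90 (adjusted p = 4.6e-06) with it, and LPS raised it by 1.27 (adjusted p = 0.000339) and LPS after IL-4 by 1.00 (adjusted p = 0.0018). Clybl, a mitochondrial lyase in the breakdown of itaconate, rose with IL-4 by 0.83 (adjusted p = 0.00205) and in IL-4+LPS over LPS by 1.03 (adjusted p = 0.000614). Clybl was called lower by LPS on the deposited scale and not under median scaling, and it turned to 0.019 under quantile normalization. Mut, the methylmalonyl-CoA mutase, was called lower by LPS by -1.17 (adjusted p = 1.78e-06).

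The patterns were last set beside those of all other genes. Over the 12 samples, the log2 levels most like that of Irg1 by Pearson's r were those of Ifi47 (0.998), Gm12250 (0.997), Spryd7 (0.997), Gbp5 (0.997) and Gbp3 (0.996). All 5 were low without LPS and high with it, as Ifi47 with means of 15.1 and 13.9 FPKM in control and IL-4 against 323 and 334 in LPS and IL-4+LPS. Those most like the mean of the 8 cycle genes were Hadha (0.998), which acts in mitochondrial fatty acid oxidation, Ostc (0.995), Coq3 (0.992), a ubiquinone synthesis enzyme, P4hb (0.992) and Mvk (0.991). Hadha had means of 45.3 FPKM in control, 66.7 with IL-4, 30.3 with LPS and 45.8 with IL-4+LPS. Among the 9 genes, the levels of Idh3a and Mdh2 had an r of 0.95 and those of Idh2 and Fh1 of 0.97, while Cs and Sucla2 had -0.06, and Irg1 had -0.94 with both Idh2 and Fh1. These values describe 12 samples of 4 groups that share their libraries, and they carry no test.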

How the data were processed

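Messenger RNA was sequenced from 12 BMDM samples in 4 groups of 3, grouped by treatment as the labels give it. Per the study's methods, the authors made poly-A selected libraries, which do not mark the strand, mapped paired reads to mm10 and computed FPKM, and the submitters' processing notes name TopHat2 2.0.7 and Cufflinks 2.0.2. The deposited tables held 1 FPKM value per row and sample, with no further normalization between samples described, so a change in the total of a sample shifts all its values. The labels do not tie replicate numbers to animals, and p-values measure the spread between these samples.

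Rows were matched across the 12 tables by symbol, locus and start site (23847 rows). Rows with at least 1 FPKM in at least 1 sample were kept (11191). Values were transformed to log2(FPKM + 1), which understates changes of low genes, and fitted with limma 3.58.1 in R 4.3.3 (group means over 12 samples, empirical Bayes with an intensity trend). Adjustment of p-values followed Benjamini and Hochberg, over all 11191 rows within each contrast. The code was tested on simulated data. No absolute depth was known, so no counting interval was formed. Gene positions are the mm10 loci of the files with 1 added to the start, annotated with GENCODE vM21.

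The members and lists were chosen with earlier results of these data known. Values were given for all 9 genes, for the listed cycle genes, for genes of the other lists called with a difference of at least 1 in IL-4+LPS minus LPS or called in the interaction, for the 5 rows most like Irg1 and the 5 most like the cycle genes, and for rows within 200 kb of Irg1, except that some genes are not reported here. Mut was named after its values were seen. Alternatives were a pseudocount of 0.1, other filters, quantile normalization, median scaling, no intensity trend, only the compared groups, the replicate number as a block, each sample left out, and replicates 2 and 3 only.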

Additional observations from a re-analysis of the deposited data

Results flagged for a closer look

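The LPS response of Dld was called different with and without IL-4 in the main fit. Dld encodes the dihydrolipoamide dehydrogenase subunit shared by the complexes that oxidize pyruvate and 2-oxoglutarate. Its interaction was -0.46 on the log2 scale (SE 0.122, adjusted p = 0.0418 by limma), the sole call among the 17 cycle genes examined. Over all rows 4.58% were called higher and 4.63% lower in the interaction, so 1 call among 17 genes does not exceed the share of all rows. Dld was at 36.6, 31.3 and 35.3 FPKM in control and 51.9, 47.8 and 52.5 in LPS, and at 51.5, 42.1 and 46.2 in IL-4 and 52.0, 48.1 and 48.5 in IL-4+LPS. It was called higher by LPS without IL-4 (0.55) and was at 0.09 after IL-4 (adjusted p = 0.365). The call was lost under quantile normalization and median scaling and without 9 of the 12 samples in turn, with differences from -0.53 to -0.39 over the 12 (adjusted p from 0.0292 to 0.104).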

How the results depend on the processing

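Over the alternatives other than leaving out a sample, 353 of 396 results of single genes among the 9 kept their direction and side of the threshold, and 507 of 540 did so when each sample was left out. Median scaling changed the LPS counts of the 9 genes from 1 higher and 5 lower to 2 and 3, and those of LPS after IL-4 from 1 and 5 to 2 and 1. For LPS minus control it turned Mdh2 to 0.046, and Idh3a and Sucla2, which were not called, to 0.17 and 0.20. For LPS after IL-4 it turned Sucla2 to 0.10, and Ogdh, Mdh2 and Dlst, which were not called, to 0.13, 0.18 and 0.27. Under quantile normalization the counts of the 9 genes were 1 higher and 4 lower for LPS, and 1 and 5 for LPS after IL-4. Quantile normalization turned Idh3a, which was not called, to 0.13 for LPS minus control, Suclg2 to 0.027 for LPS minus control and 0.050 for LPS after IL-4, and Clybl to 0.019 for LPS minus control. The labels do not tie the replicate numbers to animals, and the numbers were not used as pairs in the main fit. All 18 same-numbered pairs had positively correlated deviations from the group means (lowest 0.0024, mean 0.124, 11 above 0.1). The mean over pairs with other numbers was -0.0596, and 9 of 12 samples correlated best with their own number. Same-numbered samples were thus somewhat alike, and the paper counts 3 animals from 2 experiments for these data. With the replicate block, 7 of the 9 genes were called higher by IL-4 in place of 4, Fh1 was called in the interaction (1 in place of 0), and with replicates 2 and 3 only these counts were 7 higher by IL-4 and 1 lower in the interaction (Idh3a). Over all 11191 rows, calls higher by IL-4 were 1795 in the main fit, 2402 with the block and 2406 with those replicates. Interaction calls were 512 higher and 518 lower in the main fit, 1145 and 1095 with the block, and 1481 and 1386 with those replicates. Leaving out 1 sample gave 0 to 1 of the 9 called lower by IL-4, 3 to 5 higher by IL-4, and 4 to 6 lower by LPS with or without IL-4.

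For the 36 further cycle and feeder genes, median scaling changed the LPS counts from 3 higher and 27 lower to 6 and 14, and those after IL-4 from 2 and 22 to 8 and 8. Quantile normalization gave 7 higher and 22 lower by LPS, and 3 higher and 18 lower after IL-4. Over all rows 57.7% were called lower by LPS and 57.9% after IL-4 in the main fit, and 37.7% and 33.6% under median scaling. Under quantile normalization 4326 and 4173 of 11191 rows were called lower. The filter on 3 samples gave 1 higher for LPS after IL-4. In IL-4+LPS minus LPS, 3 were called lower, against 5 with the replicate block and 5 with replicates 2 and 3 only, and 8 in place of 4 were called lower by IL-4 with these replicates. The interaction counts of 0 higher and 1 lower became 1 higher under quantile normalization, 0 lower under median scaling, 5 and 4 with the replicate block, and 7 and 4 with replicates 2 and 3 only. Under quantile normalization the higher gene was Slc25a11, and the lower gene was Dlst (-0.36) in place of Dld. Leaving out 1 sample gave 1 to 2 higher for LPS after IL-4, 2 to 5 lower in IL-4+LPS minus LPS, and 0 to 1 higher and 0 to 2 lower in the interaction. The cause of these shifts was not tested. Among Irg1, the cycle genes examined, Aco1, Slc25a13, Clybl and Slc13a3, no other called direction turned under the alternatives run. The other genes given in values here were not checked in this way. The unknown absolute depth limits what can be said of low values such as Irg1 without LPS.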

Other observations

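Some rows near Irg1 were also examined. Kctd12, 64.4 kb before Irg1, rose with LPS by 0.82 and with IL-4 by 0.72 on the log2 scale (limma, adjusted over all rows), yet fell by 1.49 with LPS after IL-4, to 31.3 to 46.8 FPKM. Its interaction was -2.31 (adjusted p = 0.000135). Mycbp2, at 56.8 kb, fell with LPS by 0.56. The row 4933432I03Rik, at 13.2 kb, was at or under 0.0976 FPKM without LPS and at 0.282 to 2.21 FPKM with it. Mir5130 did not pass the filter.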
